A study of Mus musculus with 6 samples.

Results

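The 41 genes described here encode the machinery that copies DNA in S phase and the proteins that repair double-strand breaks by homologous recombination. They were chosen by gene function from lists drawn up with earlier results of these arrays in view, and their probes were found by gene name among the 28786 gene names on the array. Of the 41 genes, 34 act in replication, 5 in double-strand repair and its checkpoint, and 2 (Uhrf1 and Dnmt1) in copying DNA methylation onto new strands. RNA from the hearts of 6 male C57BL/6 mice was read heart by heart with a 1-colour Agilent array made of 60-base probes. In 3 mice the adrenal glands, the main source of corticosterone and aldosterone, had been removed at 1 month of age, and 3 mice had a sham operation. No other agent or allele is given for either group. The protocol puts collection 6 months after surgery, whereas the sample source names an age of 6 months, which leaves the age at collection unsure. Both groups were hearts of whole animals, so a signal is an average over all cells of the organ, and more cells of a type cannot be told apart from more RNA per cell.

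Replication begins when the origin recognition complex, with Cdc6 and Cdt1, loads the ring-shaped MCM helicase onto DNA in G1 phase. In S phase Mcm10, Cdc45 and the GINS complex switch the helicase on, primase and the polymerases copy both strands, and the clamp PCNA holds the polymerases in place. Most of these genes are transcribed at the entry into S phase under E2F transcription factors, and most heart muscle cells of the adult mouse have left the cell cycle. Homologous recombination mends breaks from the sister copy and is therefore active in cells that replicate, whereas end joining acts in resting cells too.

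Nearly all measured genes had slightly higher means after adrenalectomy with the processed signal, and 22 of 36 did after normexp background correction, where dim genes turned lower. Signals are log2 values with the 75th percentile of their array set to 0, and differences are adrenalectomized minus sham. Testing required a probe well above background in every heart of 1 group or of both, a filter that 36 of the 41 genes passed. Of these 36, 35 had a higher and 1 a lower mean, with a median log2 difference of 0.26, against 0.03 over all 16948 genes tested, of which 56.6% had a higher mean. The repair gene Brca1 was the 1 gene of the 36 that rose in limma (Benjamini-Hochberg adjusted p under 0.05 over all genes, where 0.0295% of the genes tested rose), and 0 of the 36 fell, against 0.0118%. Brca1 was well above background on 0 of 3 sham arrays, and its call was lost without any 1 array. Its difference turned to -1.15 (limma adjusted p = 0.0239) after normexp correction, where 4737 of all 16948 genes were called lower. At an unadjusted p under 0.05, 16 of the 36 were higher, against 6.27% of all genes, and 0 were lower, against 5.99%. In 20 of the 36 all 3 adrenalectomized values lay above all 3 sham values, against 10.4% of all genes. The reverse order held for 0 of the 36, against 7.95%, and in the other 16 the groups overlapped. Among genes well above background on all 6 arrays, 19 of 35 were higher without overlap, against 1515 of 15744 over the array. At an unadjusted p under 0.05, 15 of these 35 were higher, against 813 of the 15744. Because the list was proposed with this contrast in view, these counts describe the genes and are no independent test. The design text calls the mice of a group biological replicates. With 3 against 3, the smallest two-sided p of an exact permutation test is 0.1.

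**Figure D1:**
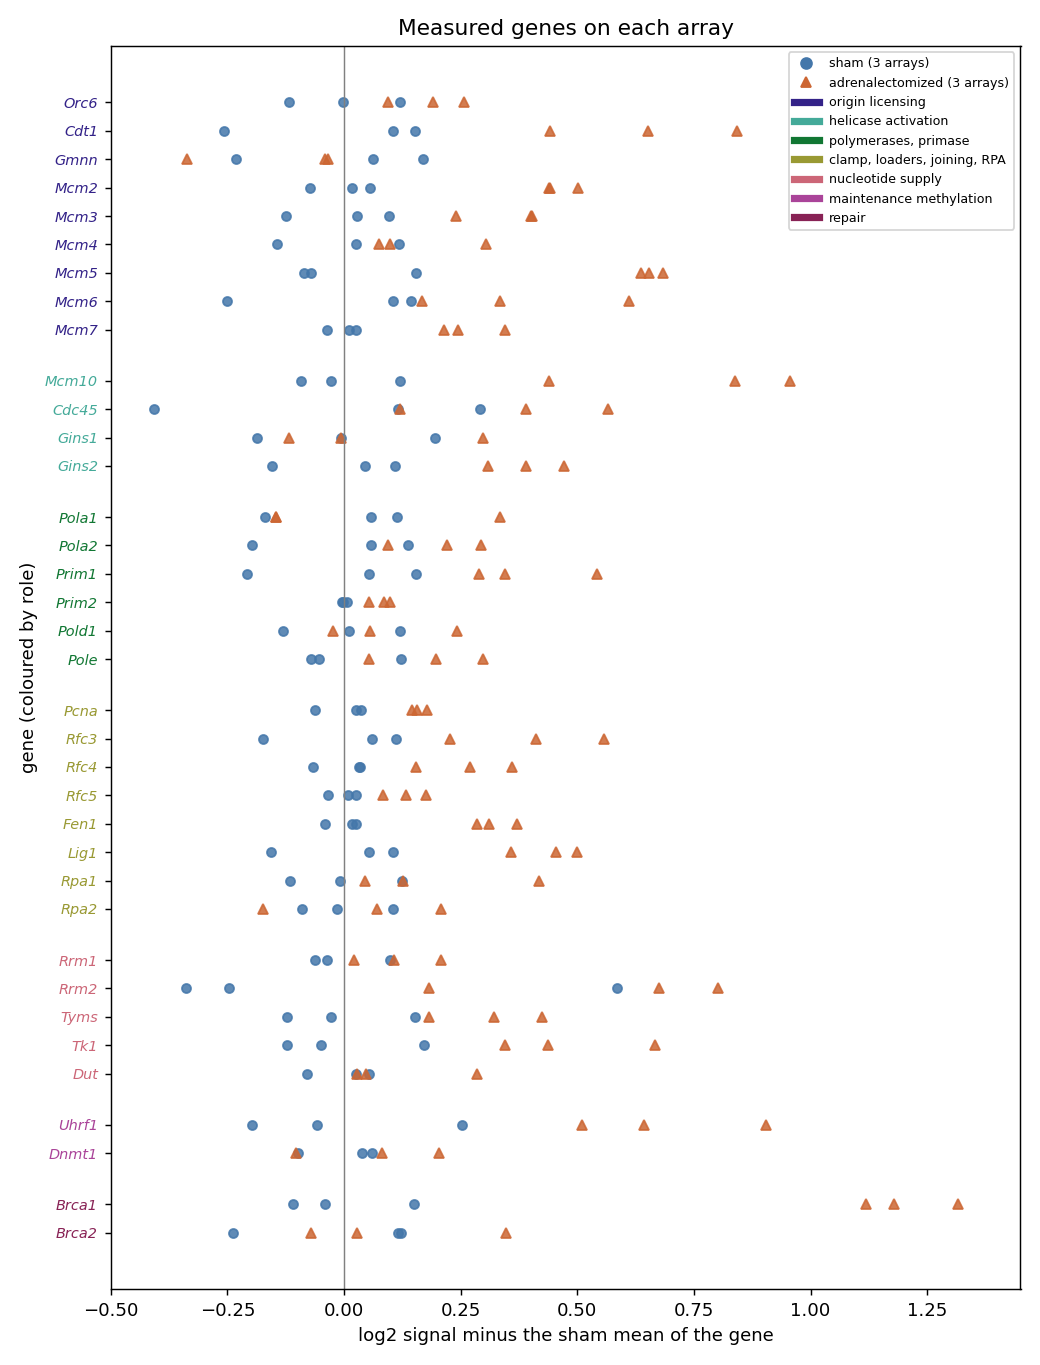
Each row is 1 of the 36 measured genes, coloured by role, and each point 1 array, plotted as its log2 signal minus the sham mean of that gene (circles, 3 sham arrays; triangles, 3 adrenalectomized arrays). Triangles lie to the right of all circles in 20 rows, and Brca1 at the bottom stands farthest to the right.

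The arrays themselves set limits on these values. Of all noncontrol spots, 57.7% to 60.2% were well above background on the sham and 60.5% to 66.8% on the adrenalectomized arrays, so detection moved with the group, and its part in the results was not tested. All sham arrays and adrenalectomized replicate 1 were on slide 1, and adrenalectomized replicates 2 and 3 on slide 2. Detection was thus highest on slide 2, which held no sham array, so group and slide cannot be told apart for it. The part of detection in the results was not tested. With the slide as a block, which leaves the 1 adrenalectomized array of slide 1 against the 3 sham arrays, the median over the 36 genes was 0.30, 34 were higher, 0 passed the adjusted threshold and 8 had an unadjusted p under 0.05. Precision is bounded by the 6 arrays, and the SE of a log2 difference had a median of 0.14 over all genes.

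Genes that load the helicase at origins numbered 11, of which 9 were measured, 8 had higher means and 5 were at an unadjusted p under 0.05. Over all genes tested, 56.6% had a higher mean and 6.27% were higher at an unadjusted p under 0.05. These shares stand beside the counts of each role group below. Mcm5, a subunit of the MCM ring, measured -0.88, -0.89 and -0.65 in the sham and -0.12, -0.16 and -0.17 in the adrenalectomized hearts. All adrenalectomized values lay above all sham values, and the difference of 0.66 (SE 0.11, adjusted p = 0.140) was 1.58-fold. Its partner subunit Mcm2 measured -0.89, -0.98 and -0.85 in the sham and -0.46, -0.40 and -0.46 in the adrenalectomized hearts, again without overlap, a difference of 0.46 (SE 0.10, adjusted p = 0.206). Mcm3 measured 0.38, 0.45 and 0.23 in the sham and 0.60, 0.76 and 0.76 in the adrenalectomized hearts, a difference of 0.35 (SE 0.11, adjusted p = 0.310). Another probe of Mcm3, which crosses an intron in the array design, gave a difference of 0.40. Mcm7 completed the ring subunits at an unadjusted p under 0.05, at 1.38, 1.36 and 1.31 in the sham and 1.57, 1.60 and 1.70 in the adrenalectomized hearts and a difference of 0.27 (SE 0.10, adjusted p = 0.357). Mcm6, whose groups did not overlap, and Mcm4, whose groups did, had higher means at 0.37 (SE 0.16, adjusted p = 0.427) and 0.16 (SE 0.12, adjusted p = 0.625). All 6 genes of the ring thus had higher means with the processed signal, from 0.16 to 0.66.

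Cdt1, the factor that brings the ring to the origin, measured 0.06, 0.01 and -0.35 in the sham and 0.35, 0.56 and 0.75 in the adrenalectomized hearts. No sham heart reached the lowest adrenalectomized heart, and the difference was 0.65 (SE 0.16, adjusted p = 0.241). Geminin, encoded by Gmnn, binds Cdt1 and blocks a further round of loading, and it was the 1 measured gene with a lower mean, at 5.28, 5.18 and 4.88 in the sham and 5.08, 5.07 and 4.78 in the adrenalectomized hearts. Its groups overlapped and its difference was -0.14 (SE 0.15, adjusted p = 0.744), or 0.24 after normexp correction. Orc6, of the origin recognition complex, overlapped too, at 0.18 (SE 0.11, adjusted p = 0.551). Orc1, the subunit whose level follows the cell cycle, was well above background on 0 of 6 arrays. Cdc6, which loads the ring together with Cdt1, was well above background on 0 sham and 2 adrenalectomized arrays, and neither gene was tested.

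The 4 genes that switch the helicase on were all measured, and all had higher means with the processed signal. After normexp correction all 4 had lower means, with Cdc45 called lower at -0.78 (limma adjusted p = 0.0417), Gins2 at -0.39 and Gins1 at -0.13. That correction called 4737 of all 16948 genes tested lower and 1215 higher. Mcm10, which helps the active helicase to fire, measured -3.31, -3.25 and -3.10 in the sham and -2.78, -2.27 and -2.38 in the adrenalectomized hearts. Its groups did not overlap, and its difference of 0.74 (SE 0.16, adjusted p = 0.206) was the highest among the replication genes, a ratio of 1.68, though -0.42 after normexp correction. Gins2, of the GINS complex, measured -2.20, -2.27 and -2.47 in the sham and -1.92, -1.84 and -2.01 in the adrenalectomized hearts, without overlap, a difference of 0.39 (SE 0.12, adjusted p = 0.286). Cdc45, which joins the ring to GINS, gave -3.11, -3.81 and -3.29 in the sham and -3.01, -2.84 and -3.28 in the adrenalectomized hearts, with overlap and a difference of 0.36 (SE 0.21, adjusted p = 0.527). For Gins1, another GINS subunit, the 2 measured probes disagreed in sign, at 0.06 and -0.15, and its groups overlapped at -0.81, -0.61 and -0.99 in the sham and -0.50, -0.81 and -0.92 in the adrenalectomized hearts.

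Polymerase and primase genes had the lowest median difference of the role groups, 0.14, with 6 of 6 measured and higher and 1 at an unadjusted p under 0.05. After normexp correction Pola1, Pola2, Prim2 and Pole were lower, at -0.15, -0.34, -0.15 and -0.10. That gene was Prim1, the catalytic primase subunit that lays down RNA primers, at -0.79, -0.69 and -1.05 in the sham and -0.49, -0.55 and -0.30 in the adrenalectomized hearts. Its groups did not overlap, and the difference was 0.39 (SE 0.14, adjusted p = 0.341). The other primase subunit, Prim2, differed by 0.08 (SE 0.09, adjusted p = 0.761), and its groups did not overlap either, with sham values in a narrow range. Pola1, the catalytic subunit of polymerase alpha, gave -0.63, -0.68 and -0.91 in the sham and -0.89, -0.88 and -0.40 in the adrenalectomized hearts, and at 0.01 (SE 0.17, adjusted p = 0.981) its means were nearly equal. Pola2, Pold1 and Pole, of the polymerases alpha, delta and epsilon, lay between 0.09 and 0.20 with overlapping groups.

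Among the clamp, its loaders, the strand-joining enzymes and the single-strand binding proteins, 8 of 8 were measured and higher, 4 at an unadjusted p under 0.05, while Rfc3 and Fen1 were lower after normexp correction, at -0.58 and -0.02. Lig1, the ligase that seals Okazaki fragments, measured 1.13, 1.08 and 0.87 in the sham and 1.39, 1.48 and 1.53 in the adrenalectomized hearts. The groups were apart, at 0.44 (SE 0.11, adjusted p = 0.254). Fen1, the nuclease that trims the flaps before ligation, gave -0.87, -0.81 and -0.80 in the sham and -0.46, -0.54 and -0.52 in the adrenalectomized hearts, also apart, at 0.32 (SE 0.09, adjusted p = 0.284). Of the clamp loader subunits, Rfc3 measured -2.58, -2.87 and -2.63 in the sham and -2.14, -2.28 and -2.47 in the adrenalectomized hearts, a difference of 0.40 (SE 0.13, adjusted p = 0.329). Rfc4 measured 1.08, 1.08 and 0.98 in the sham and 1.41, 1.32 and 1.20 in the adrenalectomized hearts, a difference of 0.26 (SE 0.10, adjusted p = 0.393). For both the groups were apart, while Rfc5 reached 0.13 (SE 0.09, adjusted p = 0.605), also without overlap. The clamp Pcna itself measured 2.71, 2.70 and 2.61 in the sham and 2.83, 2.82 and 2.85 in the adrenalectomized hearts, a non-overlapping difference of 0.16 (SE 0.09, adjusted p = 0.538). Rpa1 and Rpa2, which coat single-stranded DNA, overlapped between groups, and Rpa2, the lowest of these genes, gave 0.67, 0.60 and 0.79 in the sham and 0.89, 0.51 and 0.76 in the adrenalectomized hearts, a difference of 0.04 (SE 0.13, adjusted p = 0.934).

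Of the 5 genes of nucleotide supply, Tk1 and Tyms had an unadjusted p under 0.05. Tk1, the thymidine kinase of S-phase cells, measured -1.26, -1.34 and -1.04 in the sham and -0.55, -0.87 and -0.78 in the adrenalectomized hearts. Its groups were apart, at 0.48 (SE 0.13, adjusted p = 0.269). Tyms, thymidylate synthase, gave -0.66, -0.48 and -0.75 in the sham and -0.45, -0.31 and -0.21 in the adrenalectomized hearts, a difference of 0.31 (SE 0.12, adjusted p = 0.385). Its intron-crossing probe, which shares much of its sequence with the first, gave 0.29. Rrm2, the cell-cycle subunit of ribonucleotide reductase, had the highest difference of the 5 but also a wide sham spread, at -3.14, -3.23 and -2.30 in the sham and -2.09, -2.21 and -2.71 in the adrenalectomized hearts. Sham replicate 3 lay above 1 of the adrenalectomized hearts, and the difference was 0.55 (SE 0.28, adjusted p = 0.476), or -0.34 after normexp correction. Rrm1, the large subunit of the same enzyme, was lowest of the 5 at 1.04, 1.18 and 1.01 in the sham and 1.18, 1.10 and 1.29 in the adrenalectomized hearts, a difference of 0.11 (SE 0.11, adjusted p = 0.702). Dut, which removes dUTP, differed by 0.12 (SE 0.11, adjusted p = 0.702).

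The pair of methylation genes act one after the other on new DNA. Uhrf1, which reads half-methylated DNA behind the fork, measured -2.79, -2.48 and -2.93 in the sham and -2.23, -1.83 and -2.09 in the adrenalectomized hearts, without overlap, a difference of 0.69 (SE 0.16, adjusted p = 0.230). Its other probe gave 1.32, the same direction with a larger size, while the gene turned to -0.28 after normexp correction. Dnmt1, the methyltransferase that Uhrf1 recruits, gave -0.14, -0.12 and -0.28 in the sham and -0.10, -0.28 and 0.02 in the adrenalectomized hearts, with overlap and a difference of 0.06 (SE 0.12, adjusted p = 0.869). The difference between both genes was not tested.

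Some probe sequences are shown because they cross an intron in the design and so read spliced transcripts of the gene. Each is the designed 60-base probe, 5′ to 3′, with its span on the mm7 mouse assembly, and an exon annotation of mm7 was not used here. The Mcm3 probe repeated the difference of its gene. The Tyms probe did too, but it shares much of its sequence with the other Tyms probe reported above and is no independent repeat. The Cdc45 and Rfc3 probes are the ones reported above, and the Brca1 probe is the one that stayed at background.
Mcm3, chr1:21000880-21001396, strand -: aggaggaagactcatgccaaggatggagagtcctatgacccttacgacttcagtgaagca
Tyms, chr5:29093997-29094890, strand -: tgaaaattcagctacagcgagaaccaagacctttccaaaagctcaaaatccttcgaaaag
Cdc45, chr16:18343039-18344520, strand -: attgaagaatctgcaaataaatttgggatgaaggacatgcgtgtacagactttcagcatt
Rfc3, chr5:150581311-150583109, strand -: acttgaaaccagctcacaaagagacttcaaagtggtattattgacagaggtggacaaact
Brca1, chr11:101607008-101611044, strand -: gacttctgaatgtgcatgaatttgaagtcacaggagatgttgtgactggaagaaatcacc

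Repair genes were mostly too dim to compare with the replication genes. Only Brca1 and Brca2 of the 5 were tested, against 32 of 34 replication genes, all 32 of which were well above background on all 6 arrays. Brca1, which acts in the resection of breaks, measured -4.76, -5.02 and -4.95 in the sham and -3.60, -3.79 and -3.73 in the adrenalectomized hearts with the probe that was tested. That probe was well above background on 0 of 3 sham and 3 of 3 adrenalectomized arrays, so it passed the filter only through the group in which it was high. The increase had an approximate lower bound of 1.64-fold. For each sham array, the bound took the higher of the dim signal and the lowest signal well above background. The adrenalectomized mean was then set over the mean of these. The bound is approximate because some dim probes lay above that lowest signal. A dim Mcm4 probe read -4.05 on sham replicate 1, where the lowest signal well above background was -4.41. The fitted difference of 1.20 (SE 0.12, limma adjusted p = 0.0487) uses the dim sham signals. On slide 1 alone the bound was 1.78-fold, from 1 adrenalectomized array. The call was lost without any 1 of the 6 arrays (adjusted p from 0.0798 to 0.238), and normexp background correction turned the fitted difference to -1.15 (adjusted p = 0.0239). Over the 22 alternatives that gave a value, adjusted p ran from 0.0239 to 0.336. The other Brca1 probe, printed above, was not well above background on any array, at -6.33, -6.33 and -6.33 in the sham and -5.53, -6.68 and -6.92 in the adrenalectomized hearts. The tested probe lies at chr11:101598134-101598193 and the other at chr11:101607008-101611044 in mm7 design coordinates.

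Brca2, which acts in the strand exchange step of recombination, was measured on all 6 arrays at -1.91, -1.91 and -2.27 in the sham and -2.00, -2.10 and -1.68 in the adrenalectomized hearts. Its groups overlapped, and the difference was 0.10 (SE 0.16, adjusted p = 0.830). After normexp correction Brca2 was called lower, at -0.58 (limma adjusted p = 0.0402). In that setting 4737 of all 16948 genes tested were called lower and 1215 higher. Brca2 had a sham mean below the 75th percentile, and 4670 of the 8759 such genes were called lower. Chek1, the checkpoint kinase that stalls the cycle when forks stop, was well above background on 0 sham and 2 adrenalectomized arrays. One of its probes gave -6.00, -5.47 and -6.43 in the sham and -3.56, -4.26 and -4.57 in the adrenalectomized hearts, and the other -6.40, -4.50 and -6.76 in the sham and -5.56, -3.13 and -5.66 in the adrenalectomized hearts. The first Chek1 probe was well above background on 2 adrenalectomized arrays and the other on 1. Bard1, the partner of Brca1, was well above background on adrenalectomized replicate 3 alone, at -6.31, -6.19 and -4.88 in the sham and -6.04, -5.57 and -2.64 in the adrenalectomized hearts. Fancd2, of the Fanconi pathway that clears cross-links, was well above background on 1 adrenalectomized array, at -5.48, -4.23 and -5.42 against -6.52, -4.64 and -6.86 in the sham hearts. Signals below background have no order, so no difference is given for Chek1, Bard1 and Fancd2.

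**Figure D2:**
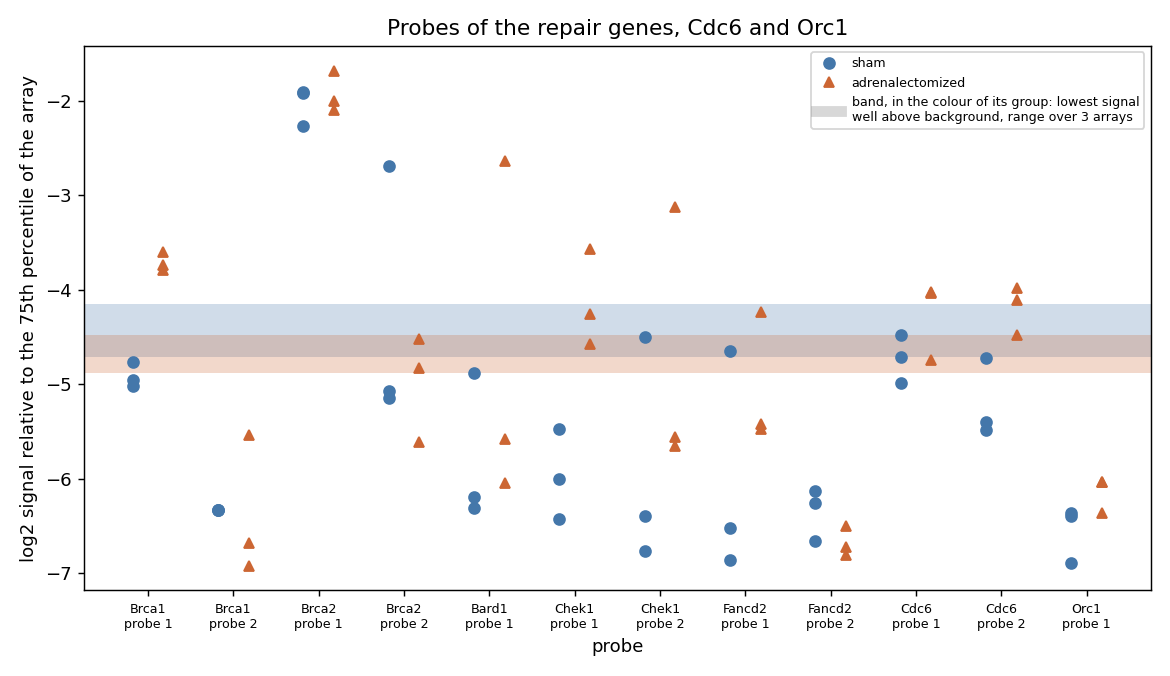
Log2 signal of every probe of the 5 repair genes, Cdc6 and Orc1, above or below that array's 75th percentile, for 3 sham (circles) and 3 adrenalectomized arrays (triangles), with bands for the lowest signal well above background on the arrays of each group. Probe 1 of Brca1 lies below the sham band in all 3 sham hearts and above both bands in all 3 adrenalectomized hearts, while probe 2 lies below both bands.

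Set side by side, the median difference was 0.26 over the 32 replication genes and 0.65 over the 2 repair genes, or 0.41 with Brca1 at its bound. Relative to the sham mean, the replication median by array was 0.03, 0.02 and -0.05 in the sham and 0.30, 0.26 and 0.25 after adrenalectomy. The repair median was 0.13, 0.01 and -0.14 against 0.67, 0.52 and 0.76. These repair values average Brca2, whose groups overlapped, with Brca1, which was dim on the sham arrays. Brca1 passed the filter only through the adrenalectomized group, so the separation of the repair values by array is no independent test. With genes well above background on all 6 arrays alone, the repair side is Brca2 alone at 0.10, below the replication median of 0.26. With no filter on dim probes, all 5 repair genes enter and their median is 1.04, from signals that include those at background. After normexp correction the repair median was -0.86 and repair minus replication -1.03. The order of the classes changed with the filter and with the background correction, and the difference between them was not tested.

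Other genes of the same pathways, listed by function, were read with the processed signal. Of 30 further replication genes 27 were measured, 23 higher and 4 lower, against 56.6% of all genes higher. Their median was 0.13. None of them passed in limma. At an unadjusted p under 0.05, 3 were higher and 0 lower, against 6.27% and 5.99% of all genes. These 3 were Dbf4, the activator of the origin-firing kinase, at 0.67 (SE 0.11, adjusted p = 0.148), Pole2, a subunit of polymerase epsilon, at 0.58 (SE 0.10, adjusted p = 0.162), and Wdhd1, which ties polymerase alpha to the helicase, at 0.54 (SE 0.10, adjusted p = 0.162). Dbf4 measured -3.86, -3.86 and -3.83 in the sham and -3.35, -3.15 and -3.05 in the adrenalectomized hearts, without overlap.

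Of 25 further recombination and Fanconi genes 21 were measured, with a median of 0.29. Of these, 20 were higher and 1 lower, against 56.6% of all genes higher. None passed in limma, while 10 higher and 0 lower had an unadjusted p under 0.05, against 6.27% and 5.99% of all genes. Of the 21, Fanci and Exo1 passed the filter only through the adrenalectomized group, and both are among the 10. Fanci, the partner of Fancd2, differed by 1.00 (SE 0.15, adjusted p = 0.114) and was well above background on 1 of 3 sham arrays. Xrcc3, which acts in recombination, differed by 0.55 (SE 0.11, adjusted p = 0.202).

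End-joining genes had a median of 0.10 over 8 measured, 7 higher and 1 lower, against 56.6% of all genes higher. None of the 8 passed in limma. None had an unadjusted p under 0.05, against 6.27% of all genes higher and 5.99% lower. The 3 of smallest p were Nhej1 at 0.13 (SE 0.10, adjusted p = 0.603), the DNA-dependent kinase gene Prkdc at 0.18 (SE 0.16, adjusted p = 0.681) and the Ku gene Xrcc6 at 0.11 (SE 0.12, adjusted p = 0.722). Markers of cycling cells were measured for 7 of 8 genes, 3 of which (Ccnb1, Cdk1 and E2f1) passed the filter only through the adrenalectomized group, in which they were high. The 4 that were well above background on all 6 arrays, Ccna2, Mki67, Birc5 and Top2a, had differences of 0.52 to 1.04. Each was at an unadjusted p under 0.05, where 6.27% of all genes tested were higher. Of the 7, Ccnb1 and E2f1 rose in limma, against 0.0295% of all genes tested. Both calls were lost with a filter of at least 1 array or none, without any 1 sham array and without adrenalectomized replicate 2. Neither gene was tested with probes above background on all 6 arrays. In each of these settings 0 of all genes were called higher. Ccnb1, the cyclin of mitosis, was well above background on 0 sham and 3 adrenalectomized arrays. Its approximate lower bound, taken as for Brca1, was 1.28-fold (limma adjusted p of the fitted difference = 0.0487). E2f1, the S-phase transcription factor, rose by 1.29 (SE 0.13, adjusted p = 0.0487) and was well above background on 2 of 3 sham arrays. Ccna2, the cyclin of S phase, differed by 1.04 (SE 0.12, adjusted p = 0.0587). No difference between these lists was tested.

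**Figure D3:**
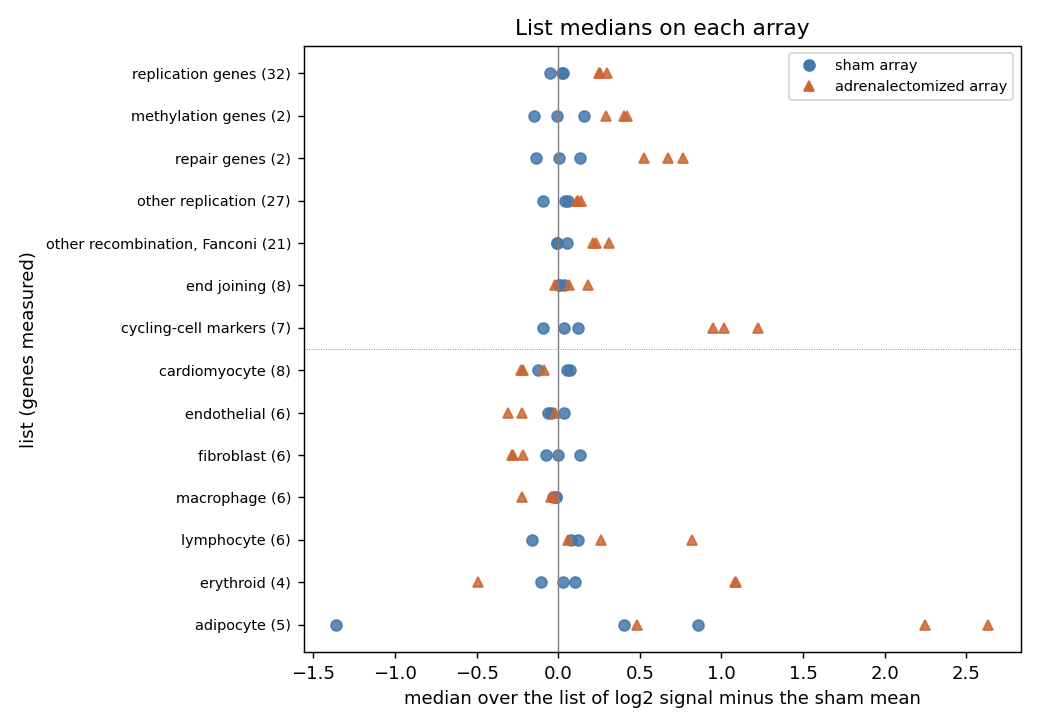
Median over each list of the log2 signal minus the sham mean of the gene, for the 3 sham (circles) and 3 adrenalectomized arrays (triangles), with the number of genes measured in brackets and cell type markers below the dotted line. The replication, methylation, repair, recombination and cycling-cell lists have all triangles to the right of all circles. End joining and the cell type lists overlap or lie to the left. In the repair list Brca1, and in the recombination list Fanci and Exo1, passed the filter only through the adrenalectomized group. So did Ccnb1, Cdk1 and E2f1 among the cycling-cell markers.

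Markers of cell types that a heart sample can hold were read beside these values. The 8 cardiomyocyte markers were well above background on all 6 arrays, and their summed level was 11.85 to 12.06 in the sham and 11.73 to 11.90 in the adrenalectomized hearts (log2 of the summed signal relative to the 75th percentile). The summed level of the 6 fibroblast markers was 7.59 to 7.88 against 7.32 to 7.50, of the 6 endothelial markers 6.25 to 6.38 against 5.80 to 6.10, and of the 6 macrophage markers 3.84 to 3.89 against 3.64 to 3.81. Lymphocyte markers, 6 of 8 measured (Cd8a and Cd79a did not pass the filter), summed to -0.49 to -0.02 in the sham and -0.20 to 0.88 in the adrenalectomized hearts. Erythroid markers, 4 of 6 measured (Hbb-b1 was not matched), summed to 8.58 to 9.20 against 8.22 to 9.72, and adipocyte markers, 5 of 6 measured (Lep did not pass), to 8.05 to 8.54 against 8.39 to 9.09. By array the median over the 36 measured genes was 0.30, 0.26 and 0.28 in the adrenalectomized hearts. The lymphocyte median was 0.06, 0.82 and 0.26 in these hearts and the erythroid median 1.08, 1.09 and -0.49. The cardiomyocyte median was -0.08, -0.23 and -0.21 and the fibroblast median -0.28, -0.28 and -0.22. The endothelial median was -0.22, -0.30 and -0.02 and the macrophage median -0.02, -0.04 and -0.22. The adipocyte median was -1.36, 0.86 and 0.41 in the sham and 0.49, 2.63 and 2.25 in the adrenalectomized hearts. The part of these cell types in the differences was not tested.

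Promoter sequence was read because most measured genes had higher means and E2F factors are known for many of them. The E2F words searched were TTTCCCGC, TTTCGCGC, TTTGCCGC and TTTGGCGC on both strands, in the 250 bases before each start in RefSeq's table for GRCm38.p6, and a position matched on both strands counted once. A window was found for 34 of the 41 genes, and 11 of them (32.4%) held a word, against 2.16% of all 27025 genes with a window. The 11 were Orc1, Cdc6, Mcm5, Mcm6, Mcm7, Pola1, Rfc3, Uhrf1, Dnmt1, Brca2 and Bard1. The word CCAAT, searched on both strands, was in 20 of the 34 genes (58.8%), against 37.5% of all genes. Measured genes with an E2F word had a median log2 difference of 0.32 (8 genes, 0.01 to 0.69), and those with a window but no word also 0.32 (22 genes, 0.04 to 1.20). The words were thus more common in the list than among all genes, and the medians with and without a word were the same to 2 decimals. Only exact words in the 250 bases were searched, so a window without a word may still hold an E2F site. The highest value without a word, 1.20, is the fitted difference of Brca1, which was dim in the sham hearts. The part of E2F in the differences was not tested.

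The 200 bases before the start are shown, 5′ to 3′ on the strand of the gene, for 6 of the 11 genes with an E2F word (3 MCM subunits, Uhrf1, Cdc6 and Brca2), to show where the words lie, and for Brca1, whose window holds none. They were picked after their values and matches were seen, and Mcm2 and Mcm3, whose groups did not overlap either, have no E2F word in their windows. Capitals mark the E2F words, and coordinates are those of GRCm38.p6.
Mcm5, chr8:75109309-75109508, strand +: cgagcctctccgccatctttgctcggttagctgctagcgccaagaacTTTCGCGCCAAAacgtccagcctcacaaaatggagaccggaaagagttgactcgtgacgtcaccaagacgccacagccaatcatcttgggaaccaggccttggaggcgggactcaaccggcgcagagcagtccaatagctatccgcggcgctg
Mcm6, chr1:128359706-128359905, strand -: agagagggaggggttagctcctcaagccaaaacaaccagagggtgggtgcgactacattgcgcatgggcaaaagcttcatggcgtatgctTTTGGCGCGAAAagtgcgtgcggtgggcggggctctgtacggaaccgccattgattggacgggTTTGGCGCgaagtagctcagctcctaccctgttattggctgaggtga
Mcm7, chr5:138171884-138172083, strand -: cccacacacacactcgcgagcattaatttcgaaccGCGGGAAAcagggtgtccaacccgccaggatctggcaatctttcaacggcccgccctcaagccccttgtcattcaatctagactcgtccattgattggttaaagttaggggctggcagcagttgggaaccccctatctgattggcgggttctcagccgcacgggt
Uhrf1, chr17:56304113-56304312, strand +: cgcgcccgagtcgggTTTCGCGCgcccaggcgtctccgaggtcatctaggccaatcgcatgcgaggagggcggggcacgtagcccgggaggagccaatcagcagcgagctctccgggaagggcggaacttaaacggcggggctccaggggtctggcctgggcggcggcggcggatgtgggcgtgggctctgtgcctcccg
Cdc6, chr11:98907951-98908150, strand +: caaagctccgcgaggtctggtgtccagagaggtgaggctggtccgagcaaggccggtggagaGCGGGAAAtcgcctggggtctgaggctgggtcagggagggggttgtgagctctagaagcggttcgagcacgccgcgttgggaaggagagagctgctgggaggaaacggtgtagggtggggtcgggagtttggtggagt
Brca2, chr5:150522421-150522620, strand +: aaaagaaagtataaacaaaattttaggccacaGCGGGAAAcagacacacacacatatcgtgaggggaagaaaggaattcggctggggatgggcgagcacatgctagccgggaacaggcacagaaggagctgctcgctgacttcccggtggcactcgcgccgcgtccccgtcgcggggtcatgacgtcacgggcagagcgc
Brca1, chr11:101551956-101552155, strand -: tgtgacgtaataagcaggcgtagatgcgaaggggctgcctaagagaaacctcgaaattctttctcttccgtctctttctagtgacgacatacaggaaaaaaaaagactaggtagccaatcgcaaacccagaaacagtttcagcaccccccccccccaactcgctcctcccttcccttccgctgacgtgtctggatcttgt

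Mcm6 carried 3 matches in that stretch and Mcm5 carried 2, while the others with a word carried 1. The 2 matches of Mcm5 overlap on opposite strands, as do the first 2 of Mcm6, so they are not separate stretches. A match describes letters in this window and not a bound site.

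The background correction changed the picture for dim genes. The processed signal, which the scanner software had corrected, gave higher means for 14 of the 15 genes whose sham mean lay above the 75th percentile of the arrays and for 21 of the 21 below it. Normexp correction on the local background gave higher means for 15 of the 15 above and 7 of the 21 below. Over all genes it made 7123 of 8189 above and 809 of 8759 below that level higher, so its shift followed the signal level throughout the array. Among the genes above it, normexp gave 0.46 for Pcna, 0.67 for Mcm6, 0.44 for Mcm7 and 0.56 for Lig1. Among those below, Mcm5 kept its direction at 0.41 and Cdt1 at 0.52, whereas Mcm10 turned to -0.42, Rfc3 to -0.58, Uhrf1 to -0.28 and Cdc45 to -0.78.

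**Figure D4:**
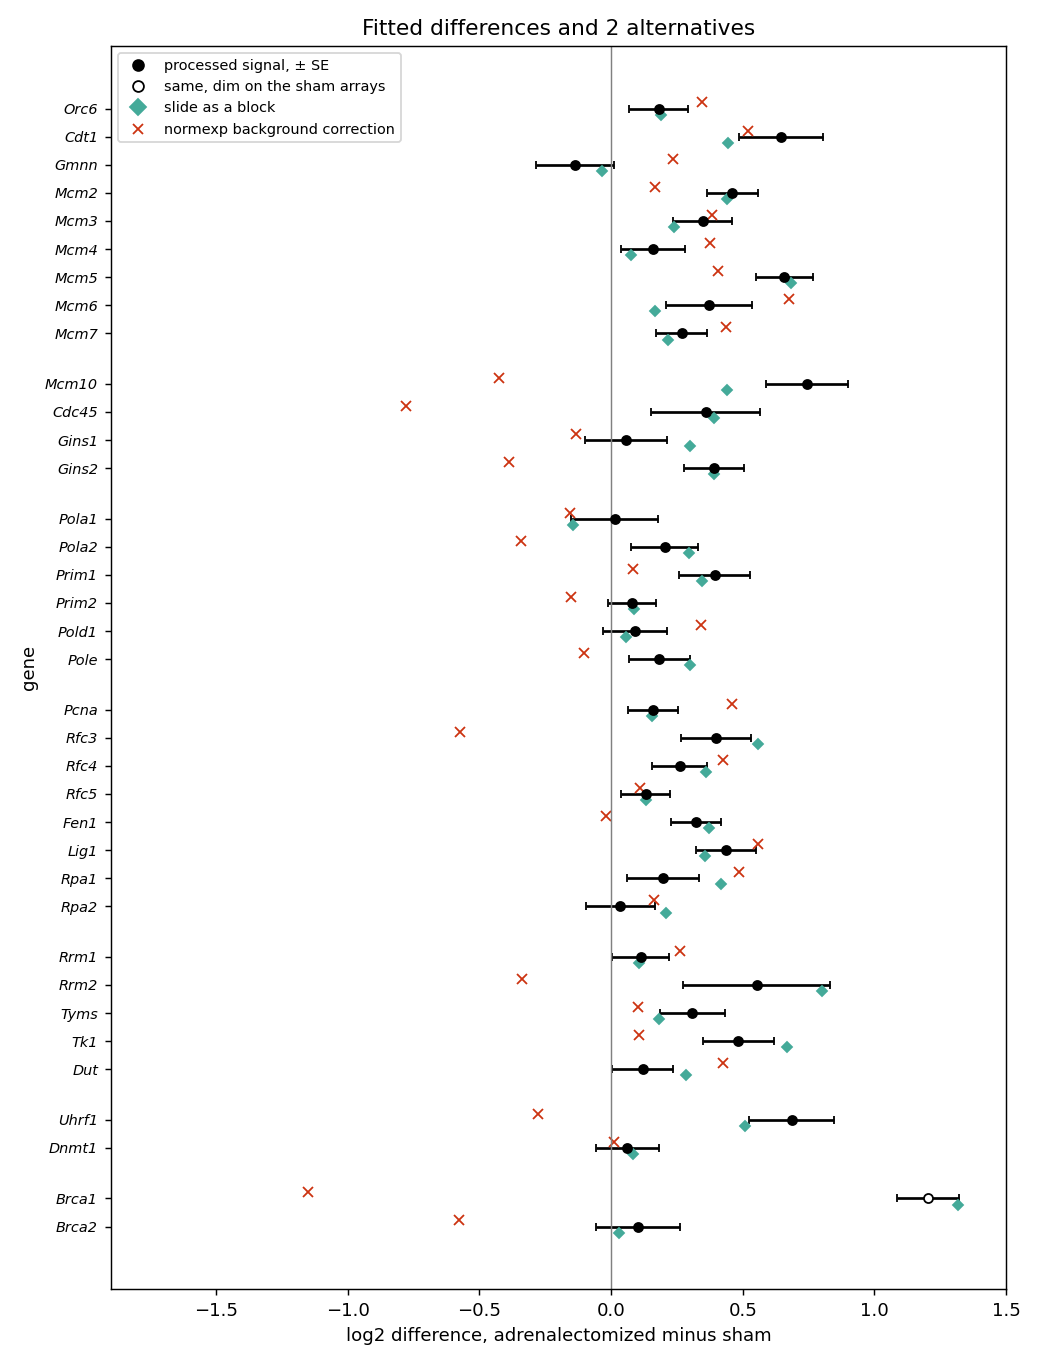
Log2 difference, adrenalectomized minus sham, of the 36 measured genes, as points with SE from the processed signal (open for Brca1, dim on the sham arrays), diamonds with the slide as a block, and crosses after normexp background correction. Diamonds stay to the right of 0 in 34 rows, and crosses do so in 22.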

How the data were processed

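Per the labels' protocols, 50 ng of heart RNA was amplified and 5 µg of the product received the Cy3 dye. The submitters' processing notes name Agilent Feature Extraction 9.5. The deposited processed signal is a linear intensity, background-subtracted and detrended within its array, with surrogates for low signals, per the file headers. The deposited value table held the same intensities for all 45018 spots, so its scale is linear and uncentred, with column medians of 70.8, 68.1 and 84.4 for sham and 75.1, 92.2 and 80.9 for adrenalectomized samples.

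Log2 signals were set to the 75th percentile of each array. Control spots and the 80 to 133 outlier spots of each array were removed, and repeats of a probe averaged. Of 41174 probes, 22951 were named through a RefSeq accession (GRCm38.p6 table). Of the 41 genes, 37 had probes under their own name, and 4 were found through an accession (Orc1, Orc6, Cdc45) or a synonym (Gins2), 60 probes in all. Among the tested probes of a gene, the one with the highest mean stood for it. No probe of these genes was saturated. The comparison used limma 3.58.1 (lmFit, eBayes; R 4.3.3) over all 16948 genes with Benjamini-Hochberg adjustment. The fit was tested on simulated data. Python 3.11.15 drew the figures.

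Genes and lists were chosen with earlier results of these data known. Per-array values are given for genes with an unadjusted p under 0.05, for the highest and lowest difference of each role and for the repair genes, and from each further list the 3 genes of smallest p are named, with other cycling-cell markers as values. Dbf4 was given per-array values after its values were seen. Some named genes of the further lists are not reported here. Alternatives changed the background correction, normalization, filter, probe choice, blocks, variance model and arrays.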

Additional observations from a re-analysis of the deposited data

How the results depend on the processing

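The count of the 36 measured genes past the adjusted threshold (1, Brca1) was 0 with quantile normalization, with centring on the median or on the 75th percentile of detected probes, with each other filter, with probes averaged per gene, with outlier spots included, with the slide as a fixed block or slide 1 alone, with the replicate block, and with a trended robust variance. Brca1 was not tested with probes above background on all 6 arrays, so its call could not be kept there. The count was 2 with array weights, which added Mcm5. After normexp background correction it was 12, 9 higher and 3 lower, where 1215 of all 16948 genes were called higher and 4737 lower. With 1 array left out it was 0 each time. Over all genes the count of 7 became 5952 after normexp, 97 with array weights, 13 with the trended robust variance, 2 with a 75th percentile over detected probes, averaged probes or outlier spots included, 1 with each other filter, with the slide as a fixed block or alone and with the replicate block, and 1 to 9 with an array left out. The 16 genes at an unadjusted p under 0.05 became 8 with the slide as a fixed block, 6 on slide 1 alone, and 11 to 15 with an array left out (11 without adrenalectomized replicate 2). The median over the genes was 0.11 after normexp, 0.32 with probes above background on at least 1 array and 0.32 with no filter, and 0.24 to 0.28 with an array left out. The replication median was 0.17 after normexp, and 0.24 to 0.28 with an array left out. The repair median turned to -0.86 after normexp, and was 0.10 with probes above background on all 6 arrays, 1.04 with either looser filter and 0.58 to 0.72 with an array left out. Repair minus replication was 0.39, turned to -1.03 after normexp and to -0.16 with probes above background on all 6 arrays, and was 0.78 with at least 1 array and 0.75 with no filter, and 0.34 to 0.45 with an array left out. The cause was not tested, except that the filters change which repair genes are tested. Brca1 turned to -1.15 after normexp, and kept its call and direction in 4 of 22 alternatives. These 4 include the deposited value table, which held the same intensities and so could not differ. They also include naming by file gene names alone, which left the Brca1 probe and its signals unchanged. The replicate numbers were not taken as pairs in the main fit. Same-numbered deviations correlated at 0.16, 0.16 and -0.16, and differently numbered ones at -0.31 to 0.18. These few correlations cannot decide whether the numbers pair the samples. The replicate block left 12 genes at an unadjusted p under 0.05. Dim signals limit the repair genes most. Precision rests on 6 arrays.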

Other observations

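Probes of some genes drawn from other transcripts stayed at background on every array. This held for 1 probe each of Prim2, Pole, Rrm1, Tyms and Fancd2 and for 1 of the 3 probes of Pola2, while the remaining dim probes of Pola2 and Mcm4 were well above background on 1 adrenalectomized array each. The less bright probe of Brca2 was well above background on 1 sham and 1 adrenalectomized array, and its mean was -4.30 in the sham and -4.99 in the adrenalectomized hearts. Of the 7 genes with a pair of tested probes, 6 gave the same direction with both, and Gins1 did not.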
